A study of Homo sapiens with 6 samples.

Results

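The BCL2 family decides at the outer mitochondrial membrane whether a stressed cell survives or undergoes apoptosis. BH3-only proteins, which carry a short death motif called BH3, either bind and disable pro-survival relatives such as BCL2, BCL-xL and MCL1 or directly activate the pore formers BAX and BAK. In melanoma, BIM, PUMA and NOXA (genes BCL2L11, BBC3 and PMAIP1) are known mediators of cell death under targeted therapy, and MCL1 and BCL-xL (gene BCL2L1) are known to hold such death back. Here 10 genes of this family were described, taken by name from a table of 26748 genes: the BH3-only genes HRK, BBC3, PMAIP1, BCL2L11, BAD, BIK and BMF, called pro-death below, and the pro-survival genes BCL2, BCL2L1 and MCL1. Members were selected on having a row of values in the table, which all 10 had, with no cut-off on a change. The list was nevertheless chosen with earlier results of these data known. The p-values of its genes are therefore not those of members picked independently of the data. HRK was already known from earlier results of these data as one of the largest falls, so its change is given as a description with no p-value.

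RNA of M14, an established human melanoma cell line, was sequenced from non-adherent cultures grown as 3D melanospheres (3D, 3 libraries) and from conventional adherent cultures of the same line (2D, 3 libraries), to compare the cell populations of both. No treatment, genotype or time in culture is given for either group. Whether the libraries of a group came from separate cultures is not labelled, so a p-value here weighs a difference only against the scatter of the libraries sequenced, and that scatter may be technical. Bulk RNA cannot tell fewer cells with a transcript from less of it per cell, and neither protein nor cell death was measured.

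Depth was alike, with 16567763 to 19954987 reads assigned to genes per library. Values are read counts divided by the authors' size factor of each library (normalised counts). These factors equal those from the median of ratios over genes, not from library totals, so totals stay unequal after scaling. On the first principal component of all tested genes, 2D replicate 3 lay at -24.7, against 59.3 to 73.9 in 3D and -94.7 and -84.4 in the other 2D libraries. It therefore stood apart from its group, and results that rest on it are given with and without it. Mitochondrial transcripts took 4.28% to 5.76% of reads in 3D and 0.528% to 1.49% in 2D. Of 14 pigment cell markers, 7 averaged under 10 normalised counts, among them SOX10, MLANA and TYR, and SOX10 had 0 to 4.85 in 3D and 4.77 to 37.0 in 2D. The summed level of all 14 was 1978 to 2840 in 3D and 3180 to 3329 in 2D, mostly from MITF, ERBB3 and PMEL. The markers did not move one way: of the 7 tested, MITF, ERBB3 and DCT fell and S100A1 rose, PMEL had 1071 ± 398 in 3D and 434 ± 279.7 in 2D without passing, and their median log2 change was 0.91. Only part of the usual markers of the labelled lineage thus reached that mean of 10.

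HRK encodes Harakiri, a BH3-only protein that binds BCL2 and BCL-xL and was first known from neurons deprived of growth factor. Its promoter is shown because HRK had the largest change of the family, together with those of BBC3 and BCL2L11. These were the only genes with a motif match among the 8 members found in the RefSeq promoter table (build GRCh38.p14), BIK and MCL1 not being matched. Each line gives the 250 bases before the annotated transcription start, 5′ to 3′ on the gene's strand, with motif matches in capitals.
HRK, chr12:116881442-116881691, minus strand: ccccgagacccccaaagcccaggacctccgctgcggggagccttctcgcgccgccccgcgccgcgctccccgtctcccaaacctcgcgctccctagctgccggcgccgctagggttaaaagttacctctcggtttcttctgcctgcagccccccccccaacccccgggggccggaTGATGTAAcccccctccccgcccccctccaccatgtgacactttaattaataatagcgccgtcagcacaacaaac
BBC3, chr19:47232668-47232917, minus strand: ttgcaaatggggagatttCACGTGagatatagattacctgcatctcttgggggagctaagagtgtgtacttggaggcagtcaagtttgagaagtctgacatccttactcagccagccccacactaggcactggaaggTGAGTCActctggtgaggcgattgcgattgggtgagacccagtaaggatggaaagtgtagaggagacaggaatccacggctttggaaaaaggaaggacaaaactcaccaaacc
BCL2L11, chr2:111120664-111120913, plus strand: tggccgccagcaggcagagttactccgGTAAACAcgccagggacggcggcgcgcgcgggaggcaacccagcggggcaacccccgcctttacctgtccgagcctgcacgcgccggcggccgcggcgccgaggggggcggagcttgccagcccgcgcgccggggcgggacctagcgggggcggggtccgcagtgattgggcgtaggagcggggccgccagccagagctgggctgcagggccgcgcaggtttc
The capitals in HRK mark a CARE, the element that the stress factor ATF4 binds with partner proteins, starting 75 bases before the start. In BBC3 they mark an AP-1 match starting at 113 bases and an HRE match at 232 bases, where the core ACGTG reads on both strands of CACGTG. In BCL2L11 they mark a FOXO match at 223 bases. Motifs were searched on both strands as TGANTCA (AP-1), TGACGTCA (CRE), TGATGNAA (CARE), GTAAACA (FOXO) and ACGTG (HRE). Of 35116 promoter windows of this length, 6.57% held AP-1, 1.65% CRE, 3.14% CARE, 2.98% FOXO and 18.5% HRE. A match describes letters, not binding. The promoters of PMAIP1, BAD, BMF, BCL2 and BCL2L1 held none of the 5 motifs in these windows.

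HRK transcripts were nearly absent from the spheres. HRK (ENSG00000135116, chromosome 12, 116856144 to 116881441, GRCh38) had 3.71, 2.91 and 9.29 normalised counts in 3D replicates 1 to 3 and 655, 709 and 91.5 in 2D replicates 1 to 3. The cultures did not overlap, and 2D replicate 3 lay below the other 2D libraries but above all 3D libraries. The 3D value rests on 16 reads, against 1440 reads in 2D. The ratio of 2D to 3D reads, corrected by these size factors, was 93.6 (exact 95% binomial interval 57.5 to 164). It was 131 (80.3 to 229.6) without 2D replicate 3 and 17.6 (10.3 to 32.1) with 2D replicate 3 as the only 2D library. These intervals cover counting error only. On the log2(value + 1) scale used for all fits, the change of HRK was -5.93 (SE 0.77), the lowest but 7 among 15598 tested genes, and -6.89 without 2D replicate 3. HRK passed the minimum mean of 10 over the 6 libraries only through 2D, so that it was tested at all depended on its level there. The other 9 members averaged over 10 in both cultures.

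BMF (ENSG00000104081, chromosome 15, 40087890 to 40108892), whose protein is held by dynein light chain 2 at the actin-myosin cytoskeleton and is known from mouse and human cells to be set free when adherent cells lose attachment, was higher in 3D. It had 77.9, 268 and 83.6 normalised counts in 3D and 16.2, 13.9 and 43.2 in 2D. Every 3D library exceeded every 2D library, with 3D replicate 2 far above the other 3D libraries and 2D replicate 3 highest in 2D. The fitted change was 2.44 (SE 0.59, limma, Benjamini-Hochberg adjusted p = 0.021, higher in 3 of 3 libraries). Leaving out a single library ended this call in 4 of 6 cases. The log2 change was then 1.86 (adjusted p = 0.053) without 3D replicate 2 and 2.70 (0.056) without 3D replicate 3. Without 2D replicate 1 it was 2.24 (0.073), and without 2D replicate 2 it was 2.14 (0.068). BMF-AS1, on the opposite strand, shares 8.46% of the exon bases of BMF.

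**Figure D1:**
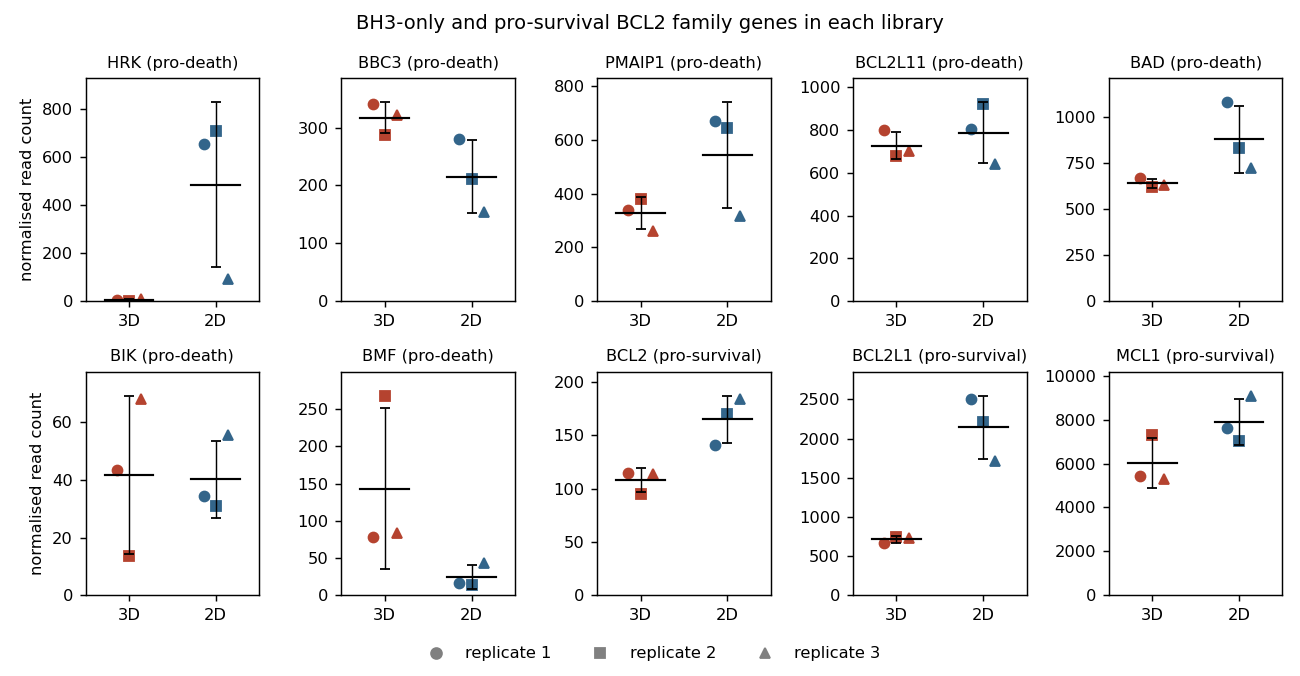
Normalised read counts of the 10 genes, with 3D left of 2D in each panel. Points are libraries (shape gives the replicate number), lines are means and bars are ± SD (n = 3). HRK is close to 0 in 3D, with 2D replicate 3 at 91.5, and BMF reaches 268 in 3D replicate 2.

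BBC3 (ENSG00000105327, chromosome 19, 47220822 to 47232766), which encodes PUMA, a binder of all pro-survival proteins, had 341, 288 and 322 normalised counts in 3D and 280.2, 210.3 and 154 in 2D. The cultures did not overlap, 3D being above, yet the difference did not pass the test (log2 0.60, SE 0.26, limma adjusted p = 0.12, and 0.094 to 0.29 when each library was omitted in turn). PMAIP1 (ENSG00000141682, chromosome 18, 59899948 to 59904306), which encodes NOXA, a protein that binds MCL1 and promotes its degradation, had 339, 380.0 and 262 in 3D and 668, 643 and 316 in 2D. Its 2D replicate 3 lay within the range of 3D, so the cultures overlapped. The log2 change of PMAIP1 was -0.67 (SE 0.31, limma adjusted p = 0.145), and without 2D replicate 3 it was -1.02 and passed (adjusted p = 0.0039). Omitting any other library left PMAIP1 uncalled (adjusted p up to 0.40).

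BCL2L11 (ENSG00000153094, chromosome 2, 111119378 to 111168447), which encodes BIM, had 798, 679 and 703 normalised counts in 3D and 803, 920.2 and 639 in 2D. The libraries of both cultures were mixed in order (log2 -0.10, SE 0.19, limma adjusted p = 0.71). Its sign turned to 0.03 with libraries rescaled to equal totals. BAD (ENSG00000002330, chromosome 11, 64269830 to 64284704), a BH3-only protein controlled by growth factor signalling through phosphorylation, had 668, 623 and 632 in 3D and 1082, 833 and 727 in 2D. All 3D libraries lay below 2D, but the log2 change of -0.44 (SE 0.19) did not pass (limma adjusted p = 0.12). BAD passed once 2D replicate 3 was omitted, at -0.57 (adjusted p = 0.023). Of its exon bases, 23.7% lie opposite exons of GPR137, where reads of BAD and GPR137 cannot be told apart in a library without strand. How such reads were counted is not given, so the level of BAD is uncertain. BIK (ENSG00000100290, chromosome 22, 43110748 to 43129712), the BH3-only protein of the endoplasmic reticulum, was low, with 43.6, 13.6 and 68.1 in 3D and 34.3, 31.0 and 55.5 in 2D. These values overlapped widely (log2 -0.17, SE 0.58, limma adjusted p = 0.85), and its sign turned under other tests.

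Of the pro-survival genes, BCL2L1 fell in the spheres. BCL2L1 (ENSG00000171552, chromosome 20, 31664452 to 31723989), which encodes BCL-xL, had 667, 745 and 724 normalised counts in 3D and 2503, 2215 and 1714 in 2D. The groups were far apart relative to their spread, at 712 ± 40.4 in 3D and 2144 ± 399 in 2D (SD, n = 3 each). The log2 change was -1.57 (SE 0.19, limma adjusted p = 0.0013, lower in 3 of 3 libraries), between -1.73 and -1.45 when each library was omitted in turn, and the call held in all 6 of these fits (adjusted p = 7.4e-05 to 0.011). The antisense transcript ABALON lies opposite 43.0% of the exon bases of BCL2L1. It had 39.0 to 41.3 normalised counts in 3D and 12.8 to 109 in 2D, far below BCL2L1, but reads of both cannot be told apart in this kind of library, so the size of the fall is uncertain. The gene-level value also does not separate the long and short splice forms of BCL2L1, which act in opposite ways, nor those of MCL1.

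BCL2 (ENSG00000171791, chromosome 18, 63123346 to 63320128), the founding member, was low in both cultures, with 115, 95 and 114 normalised counts in 3D and 141, 169.7 and 184 in 2D. All 3D libraries were below all 2D libraries, without passing the test (log2 -0.60, SE 0.24, limma adjusted p = 0.096, and 0.098 to 0.23 when each library was omitted in turn). MCL1 (ENSG00000143384, chromosome 1, 150574551 to 150579738), whose short-lived protein is controlled largely after transcription, had 5447, 7328 and 5278 in 3D and 7617, 7016 and 9082 in 2D. Its 3D replicate 2 lay above 2D replicate 2, so the cultures overlapped. The log2 change of MCL1 was -0.40 (SE 0.20, limma adjusted p = 0.17).

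**Figure D2:**
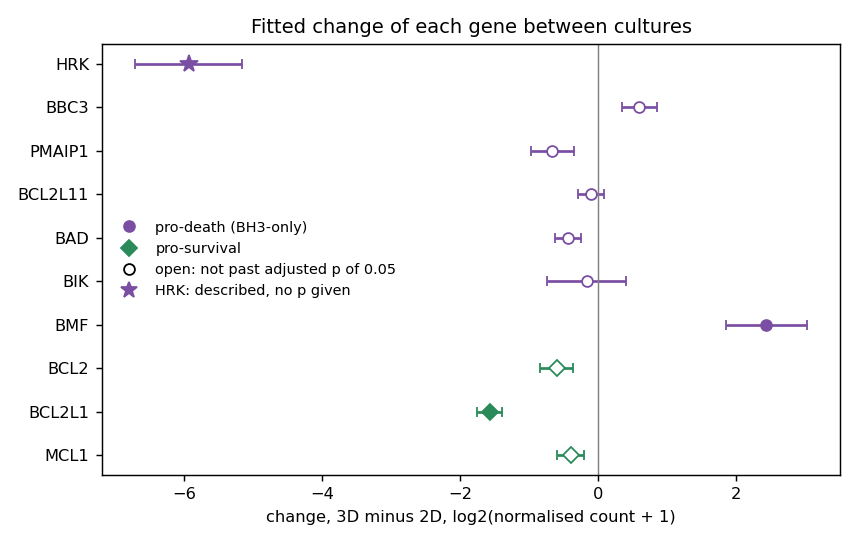
Fitted change of each gene between cultures on the log2(normalised count + 1) scale (x axis, 3D minus 2D); bars are the standard error of the fit. Filled symbols passed an adjusted p of 0.05 (BMF at 2.44 and BCL2L1 at -1.57), open symbols did not, and the star marks HRK at -5.93, which is given as a description with no p-value.

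Among the 9 members other than HRK, 1 rose, 1 fell and 7 did not pass. Of all 15598 genes tested, 24.1% passed in either direction, 12.5% higher and 11.6% lower, so the share of members called is near that of genes at large. The median log2 change of the 10 members was -0.42, that of the 7 pro-death genes -0.17 and that of the 3 pro-survival genes -0.60, beside -0.02 for all tested genes. Rescaling to equal library totals moved the last value to 0.11. Values did not overlap between cultures for BBC3 and BMF, which were above in 3D, and for HRK, BAD, BCL2 and BCL2L1, which were below. Over all tested genes, 20.5% lay wholly above and 22.6% wholly below in 3D. Either way, 43.1% of genes did not overlap, which is the share to read the 6 such members against. By edgeR, which called 23.4% of all genes, and by DESeq2, which called 30.3%, BMF was again the only member called higher, and of the 9 members BCL2L1 the only one called lower. Without 2D replicate 3, limma called 45.6% of all genes, 22.6% higher and 23.0% lower, and among the 9 members BMF was higher and PMAIP1, BAD and BCL2L1 were lower. Without 3D replicate 2 as well, and so with fewer libraries in both cultures, 58.0% of genes were called, 28.4% higher and 29.5% lower. MCL1 then joined the members called lower (log2 -0.45, limma adjusted p = 0.018). The omitted 3D library held the highest 3D value of MCL1 (7328), which had made the cultures overlap.

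The level of pro-death relative to pro-survival genes differed little between cultures with HRK included and more without it. Per library, the mean log2 level of the 7 pro-death genes minus that of the 3 pro-survival genes was -2.43, -2.61 and -2.28 in 3D and -2.47, -2.58 and -3.01 in 2D. The cultures overlapped, and their means of -2.44 ± 0.16 in 3D and -2.69 ± 0.29 in 2D differed by 0.25, less than the spread in 2D (SD, n = 3 each; values on the log2(value + 1) scale). Omitting 2D replicate 3 brought this difference to 0.086. The overlap depended on the scale and the genes: with a pseudocount of 10 in place of 1, which gives low genes such as HRK less weight, 3D lay at -2.29 to -2.13 and 2D at -2.93 to -2.35, a difference of 0.38 without overlap. With the effectors, BID and the other pro-survival genes added, 3D lay at 1.5 to 1.88 and 2D at 1.22 to 1.36, a difference of 0.39 without overlap. With HRK left out, the same difference was -1.61, -1.76 and -1.63 in 3D and -2.70, -2.85 and -2.86 in 2D. All 3D libraries then lay above all 2D libraries, by 1.14 between the means of -1.67 ± 0.08 in 3D and -2.80 ± 0.09 in 2D, 2D replicate 3 included. The pro-survival genes contributed most of this difference, their mean log2 level being 9.55 to 9.66 in 3D and 10.4 to 10.5 in 2D. That of the 6 other pro-death genes was 7.90 to 7.94 in 3D and 7.58 to 7.75 in 2D. Single genes weighed heavily on both sides. BCL2L1 (log2 -1.57) fell more than BCL2 (-0.60) and MCL1 (-0.40). Of the 6 pro-death genes, only BMF (2.44) and BBC3 (0.60) had positive changes, against -0.67 to -0.10 for PMAIP1, BAD, BIK and BCL2L11. No test was made on the mean levels, because the members were chosen with results of these data known.

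**Figure D3:**
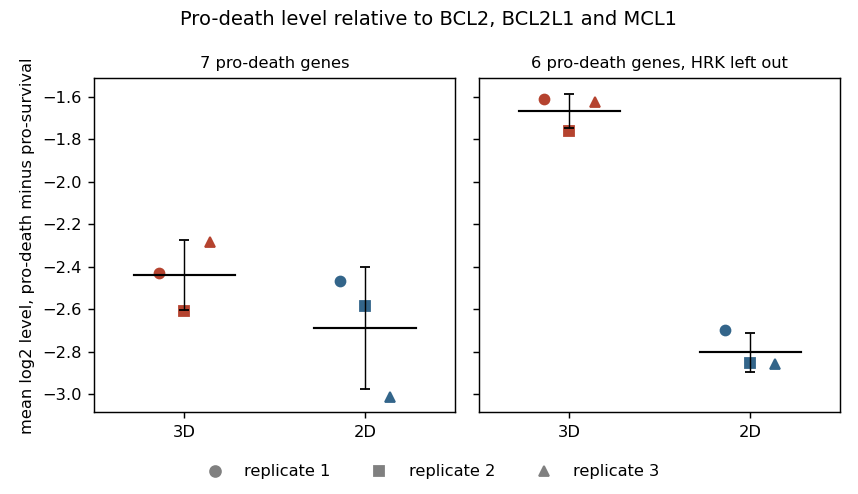
Mean log2(normalised count + 1) of pro-death genes minus that of BCL2, BCL2L1 and MCL1 in each library (y axis), with all 7 pro-death genes on the left and without HRK on the right; points are libraries, lines are means and bars are ± SD (n = 3). The cultures overlap with HRK included (means -2.44 in 3D and -2.69 in 2D) and separate without it (-1.67 in 3D and -2.80 in 2D).

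Levels of different genes were compared per kilobase of exon, using the union of the exons annotated in GENCODE 29. That length counts every annotated exon, used here or not, and the exon overlaps of BAD and BCL2L1 leave their levels uncertain. MCL1 was the most abundant member in both cultures, at 1377 ± 260.3 normalised counts per kilobase in 3D and 1808 ± 243 in 2D (SD, n = 3 each). In 3D it was followed by BAD (375 ± 13.9) and BCL2L1 (215 ± 12.2), whose libraries did not overlap each other. In 2D BCL2L1 (647 ± 120.5) and BAD (515 ± 107) did overlap. PMAIP1 followed in both cultures, at 146 ± 26.7 per kilobase in 3D and 243 ± 87.9 in 2D. In 3D PMAIP1, BCL2L11 and BBC3 were neighbours whose libraries overlapped in turn, as did BIK and BMF. In 2D the neighbours BCL2L11, HRK, BBC3 and BIK overlapped in turn. The lowest levels per kilobase were those of HRK (0.774 ± 0.507) and BCL2 (9.17 ± 0.949) in 3D and of BMF (4.48 ± 2.99) and BCL2 (14 ± 1.86) in 2D.

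The make-up of the pro-survival side thus differed in level per kilobase. MCL1 accounted for 85.5%, 87.8% and 84.1% of the summed level of the 3 pro-survival genes in 3D and for 69.4%, 70.2% and 79.6% in 2D. BCL2L1 made up 13.8%, 11.8% and 15.2% in 3D and 30.1%, 29.2% and 19.8% in 2D. The ratio of MCL1 to BCL2L1 was 6.39 ± 0.977 in 3D and 2.91 ± 0.962 in 2D (SD, n = 3 each), with 2D replicate 3 at 4.02, nearest to 3D. On the pro-death side BAD held the largest share in every library, 46.8% ± 0.626 in 3D and 49.0% ± 5.13 in 2D. BBC3 took 12.4% ± 0.855 in 3D and 6.32% ± 0.522 in 2D, and HRK took 0.0974% ± 0.066 in 3D and 6.14% ± 3.96 in 2D.

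Known binding partners were set against each other per kilobase of exon. HRK and its target BCL2L1 were both lower in 3D, and their ratio was 0.00269, 0.00189 and 0.00621 in 3D and 0.127, 0.155 and 0.0258 in 2D. The ratio of BAD to BCL2 plus BCL2L1 was 1.85, 1.57 and 1.62 in 3D and 0.826, 0.714 and 0.799 in 2D, without overlap and with 2D replicate 3 inside its group. For PMAIP1 to MCL1 it was 0.122, 0.101 and 0.0972 in 3D and 0.172, 0.179 and 0.068 in 2D, where 2D replicate 3 lay below every 3D library. BBC3 to the 3 pro-survival genes was 0.0735, 0.0474 and 0.0706 in 3D and 0.0351, 0.0289 and 0.0186 in 2D, without overlap. BCL2L11 to the same 3 genes was 0.0822, 0.0534 and 0.0736 in 3D and 0.0481, 0.0604 and 0.0368 in 2D, and overlapped. The summed level of all 7 pro-death genes relative to the 3 pro-survival genes was 0.51 ± 0.083 in 3D and 0.433 ± 0.113 in 2D and overlapped. These pairs were chosen after the values were seen and were not tested. Exon bases shared with genes on the opposite strand, 23.7% for BAD and 43.0% for BCL2L1, leave the ratios with these genes uncertain.

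The pore formers and other relatives moved less than HRK. Of BAX, BAK1, BOK and BID, BOK, a BAX relative, rose, at 870.2 ± 124 normalised counts in 3D and 449.5 ± 171 in 2D (log2 1.01, SE 0.28, limma adjusted p = 0.032, higher in 3 of 3 libraries). Its call held on leaving out 2D replicate 3 and was lost on leaving out each of the other 5 libraries (adjusted p up to 0.12). BAX (1263 ± 210.1 in 3D and 956 ± 195 in 2D), BAK1 (498 ± 80.6 in 3D and 498 ± 93.2 in 2D) and BID (829 ± 78.7 in 3D and 762 ± 88.7 in 2D) did not pass, with limma adjusted p of 0.18, 0.99 and 0.63. BAX passed once 2D replicate 3 was omitted (log2 0.55, adjusted p = 0.043). BCL2L2, which encodes pro-survival BCL-w, had 519.5 ± 103 in 3D and 533.5 ± 91.5 in 2D (limma adjusted p = 0.90). BCL2A1, a pro-survival gene known as a target of MITF in melanoma, had 0 to 1.94 normalised counts in 3D and 0.953 to 2.14 in 2D, and BCL2L10 had 0 in 3D and up to 1.91 in 2D, too low to test.

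Of 6 tested BCL2-like genes and binding partners, BNIP3, a mitophagy receptor and target of hypoxia-inducible factor, rose, with 1871 ± 710.5 normalised counts in 3D and 742 ± 239 in 2D (log2 1.30, SE 0.33, limma adjusted p = 0.025). The call ended on omitting 3D replicate 1 or 3, or 2D replicate 1 or 2, each alone (adjusted p up to 0.099). BCL2L13, BCL2L12, BCLAF1, BNIP1 and BNIP2 did not pass, with log2 changes of -0.59 to 0.16. Without 2D replicate 3, BCL2L12 also passed as higher and BNIP1 and BNIP2 as lower. The level of BCL2L12 is uncertain, since 33.1% of its exon bases lie opposite IRF3. Counts of this and the following lists stand against the 24.1% of all genes called by limma with all libraries. Those without 2D replicate 3 stand against the 45.6% called in that fit. BCL2L15 was too low to test and BCL2L14 was not analysed here. Of 10 tested genes that control MCL1 or hold BH3-only proteins, none rose and 2 fell, beside 12.5% higher and 11.6% lower among all genes. BTRC, part of a ubiquitin ligase known to mark MCL1, had 791.5 ± 14.5 in 3D and 1599.9 ± 112 in 2D (log2 -1.01, SE 0.15, limma adjusted p = 0.0038). DYNLL2, the dynein light chain that holds BMF, had 1716 ± 138 in 3D and 3096 ± 664 in 2D (log2 -0.83, limma adjusted p = 0.021). Of the fits that omitted a library, the call of DYNLL2 held only without 2D replicate 3 (adjusted p up to 0.086), where 1 gene of the list was higher and 4 were lower.

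Downstream of the mitochondrion, 1 of 15 tested genes of the apoptosome and executioner list fell and 1 rose. Among all genes, 11.6% were lower and 12.5% higher. CASP9, the initiator caspase of the apoptosome, had 219.9, 177 and 284 normalised counts in 3D and 945, 844 and 1143 in 2D. All libraries of both cultures were well separated (log2 -2.12, SE 0.23, limma adjusted p = 0.00095), and the call held when each library was omitted in turn (adjusted p up to 0.007). VDAC1, a channel of the outer mitochondrial membrane, rose to 5855 ± 298 in 3D, against 3126 ± 1268 in 2D (log2 0.98, SE 0.26, limma adjusted p = 0.030), a call that, with a library omitted, held only without 2D replicate 3. CYCS, which encodes cytochrome c, and its partner APAF1 did not pass. Without 2D replicate 3, 5 genes of the list were higher and 2 lower, a share near the 45.6% of all genes called in that fit.

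Of 6 tested inhibitors of apoptosis, limma called 1, BIRC7, an inhibitor known in melanoma. It had 14.8, 19.4 and 26.8 normalised counts in 3D and 0, 0 and 3.08 in 2D. BIRC7 passed the minimum mean of 10 only through 3D, so its values are given as a description, and the call was lost without 3D replicate 3. XIAP, BIRC2, BIRC3, BIRC5 and BIRC6 did not pass by limma with all libraries. BIRC5 was called lower by DESeq2 (log2 -0.90, adjusted p = 0.026) but not by edgeR (0.065). It also passed as lower by limma without 3D replicate 2 (adjusted p = 0.044). Without 2D replicate 3, 3 genes of the list were lower. Of 11 tested genes of the death receptor route, limma called 0, beside 24.1% of all genes. At an unadjusted p under 0.05 the count was 1, and it was 0 by edgeR (23.4% of all genes) and 1 by DESeq2 (30.3%). Without 2D replicate 3, 1 was higher and 2 were lower, among them TNFRSF10B, a TRAIL receptor (log2 -0.82, adjusted p = 0.0017).

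**Figure D4:**
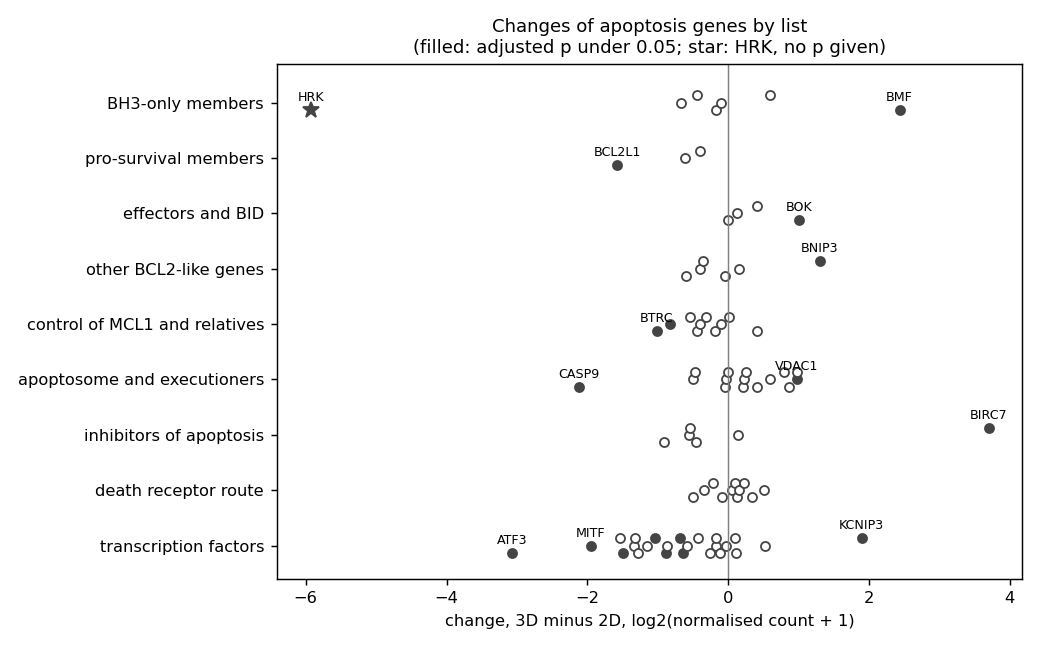
Fitted change of every tested gene of 9 apoptosis lists on the log2(normalised count + 1) scale (x axis, 3D minus 2D), each circle a gene; filled circles passed an adjusted p of 0.05, and the star is HRK, given as a description with no p-value. HRK at -5.93 lies farthest left, CASP9 lies at -2.12 and the transcription factor gene ATF3 at -3.06. BIRC7 (3.70) is drawn filled, but it passed the minimum mean only through 3D and is likewise given as a description.

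Of 24 tested genes for transcription factors known to control BH3-only or BCL2 genes, 1 rose and 7 fell, beside 12.5% higher and 11.6% lower among all genes, with a median log2 change of -0.66, and with libraries rescaled to equal totals 2 rose and 5 fell. Without 2D replicate 3, 3 were higher and 12 lower, beside 22.6% and 23.0% of all genes. ATF3, induced by stress, had 292 ± 34.9 normalised counts in 3D and 2447 ± 247 in 2D (log2 -3.06, SE 0.17, limma adjusted p = 0.00011). MITF, the pigment cell regulator and an activator of BCL2, had 288 ± 19.0 in 3D and 1131 ± 215 in 2D (log2 -1.95, SE 0.20, limma adjusted p = 0.00077). KCNIP3 encodes DREAM, a calcium-binding repressor known to act on HRK in blood progenitors. It had 363, 153 and 404 in 3D and 61.0, 58.7 and 117 in 2D (log2 1.90, SE 0.43, limma adjusted p = 0.017), a call that ended on omitting 3D replicate 1 or 3, or 2D replicate 1 or 2, each alone (adjusted p up to 0.080). FOXO1, NFKB1 and STAT3 were also among those that fell. The call of FOXO1 ended on omitting 2D replicate 1 or 2, and that of NFKB1 on omitting either of these or 3D replicate 1 or 3. STAT3 lost its call on omitting each library except 2D replicate 3 (adjusted p up to 0.051 for FOXO1, 0.10 for NFKB1 and 0.11 for STAT3).

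In 2D replicate 3, where HRK was low for its group, the stress response genes ATF4, DDIT3 and CEBPB were low too, while ATF3 was not. ATF4, the translation-controlled stress factor, had 4035, 4084 and 4152 normalised counts in 3D and 19934, 15473 and 4982 in 2D. DDIT3, its target CHOP, had 94.6, 149 and 119 in 3D and 889, 781 and 58.6 in 2D, although 27.2% of its exon bases lie opposite MARS. MARS was far higher, at 1938, 2643 and 2337 in 3D and 11370, 9836 and 2468 in 2D, and also low in 2D replicate 3. Reads over the shared bases cannot be told apart without strand, so the values and calls of DDIT3 are uncertain. CEBPB, another stress factor, had 2734, 3231 and 2241 in 3D and 12716, 10980.4 and 2311 in 2D. In 2D replicate 3, CEBPB lay within the range of 3D, DDIT3 below it and ATF4 just above it. Relative to the mean of the other 2D libraries, 2D replicate 3 was lower by 7.45-fold for HRK, 3.55-fold for ATF4, 14.3-fold for DDIT3 and 5.13-fold for CEBPB. ATF3, at 2538 in that library, was 1.06 times the mean of the other 2D libraries. Of other listed genes, FOXO3 (2315, against 4327 and 5387) and TNFRSF10B (2351, against 4783 and 4427) were also lower in 2D replicate 3. BIRC5 (4311, against 2651 and 2089) was higher there. All these genes were named after their values were seen. The share of all genes that was lower in this library is not given, so the drop is not shown to be particular to the stress genes. The early response genes EGR1 and FOS were highest in the same library, at 16787 and 29289, against at most 2008 and 5343 in 3D and 209 and 1755 in the other 2D libraries. The part of these differences in the level of HRK was not tested. ATF4 passed at -1.50 (limma adjusted p = 0.042), a call that ended on omitting each library other than 2D replicate 3, while DDIT3 (log2 -1.53) and CEBPB (-1.34) did not pass (limma adjusted p = 0.23 for DDIT3 and 0.11 for CEBPB). With 2D replicate 3 omitted, all 3 passed, ATF4 at -2.10 (adjusted p = 4.2e-05), DDIT3 at -2.80 (6.8e-05) and CEBPB at -2.13 (7.6e-05).

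**Figure D5:**
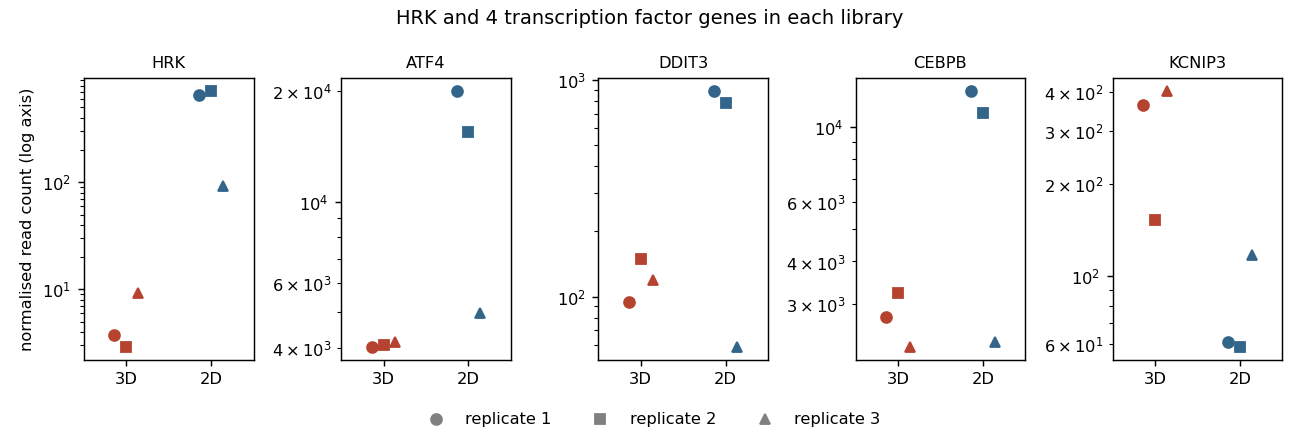
Normalised read counts of HRK, ATF4, DDIT3, CEBPB and KCNIP3 in each library on a log axis, with 3D left of 2D and the replicate number given by shape. In 2D replicate 3, HRK (91.5), ATF4 (4982), DDIT3 (58.6) and CEBPB (2311) lie well below the other 2D libraries. ATF3, which is not drawn, was not low there (2538, against 2636 and 2167).

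Among protein-coding genes with a mean of at least 100, those most like HRK over the 6 libraries by Pearson's r of log2 values were ABCD4, RNF20 and RPRD1B (r = 0.998, 0.997 and 0.997). Their log2 changes of -0.80 to -0.75 were much smaller than that of HRK. Most like BMF were CETN2, RPS27L and EDIL3 (each r = 0.998), which, as BMF did, peaked in 3D replicate 2, and RPS27L had 2765 there, against 1152 and 1106 in the other 3D libraries. BCL2L1 was most like AIFM2, EDNRA and CTCF (r = 1.00, 0.998 and 0.998). Between members, the pair with the highest r was HRK and BCL2L1 (0.98), and the lowest was HRK and BMF (-0.94). These values describe 6 libraries that fall into 2 cultures, which sets much of any r.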

How the data were processed

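The authors deposited a signal per gene, read counts divided by 1 size factor per library. The tools named, per the submitters' processing notes, are featureCounts 1.5.0, HISAT2 and DESeq2, and the builds GRCh38 and hg38. For the annotation release, strand setting and other versions, the sources used here give nothing. Per the labels' protocols, poly(A) libraries were made with a TruSeq kit that does not mark strand. Dividing each library by its smallest step returned reads (100% whole within 0.01 of a read). Symbols matched 26506 genes, and GENCODE 29 gave coordinates for 26702. Another 6 columns were empty.

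Members and lists were chosen with earlier results of these data known. All genes with a mean of at least 10 were fitted with limma 3.58.1 (R 4.3.3) on log2(value + 1), trended eBayes, culture as the only term, two-sided, Benjamini-Hochberg adjusted, called under 0.05. This scale understates changes of low genes. The workflow was tested on simulated data. edgeR 4.0.16 and DESeq2 1.42.0 on the recovered reads were alternatives, and edgeR called 3657 genes. All members were named. Of the other lists, effectors, BCL2 relatives and up to 4 called genes were named, further genes after their values were seen. The planned search for the BH3 motif in proteins was not run. Some items are not reported here.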

Additional observations from a re-analysis of the deposited data

How the results depend on the processing

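Of 15598 genes, 3766 were called, against 1121 at an adjusted p under 0.01, 9041 without both 2D replicate 3 and 3D replicate 2, and 1190 to 7111 with a library left out. Members called higher numbered 1, against 0 at 0.01 and 0 to 1 with a library left out. Where limma called 0 in the latter fits, 1 or 2 passed an unadjusted p of 0.05, and edgeR and DESeq2 each called 1 with all libraries. Members called lower numbered 2, against 2 to 4 with a library left out and 5 without both libraries, where MCL1 also passed. HRK is 1 of them each time, and since its fall was known beforehand its place in these counts supports nothing. The pro-death minus pro-survival difference of 0.25 was 1.14 without HRK, 0.086 to 0.36 with a library left out, 0.38 with a pseudocount of 10 and 0.39 with effectors, BID and other pro-survival genes added. The cultures did not overlap without HRK, in the last 2 of these, or without 3D replicate 2, alone (0.33) or together with 2D replicate 3 (0.17). The log2 change of BCL2L11 turned to 0.028 with equal totals and ranged from -0.246 to 0.016 with a library left out. That of BIK turned to 0.084 by edgeR, 0.085 by DESeq2 and 0.73 without both libraries, and ranged from -0.648 to 0.47 with a library left out. BCL2L1, BBC3 and BCL2 kept direction and side of the threshold in all 17 alternatives. Same-numbered libraries did not deviate together (correlations of -0.08, -0.14 and 0.04), and with the replicate block 3222 genes, 1 member higher and 2 lower were called. The cause of these changes was not tested. With 16 reads of HRK in 3D, depth limits its ratio, and 3 libraries per culture limit all tests.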
